A study of Mus musculus with 7 samples.

Results

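Immediate early genes are transcribed within minutes of a stimulus by factors that the cell already holds, and their mRNAs are short-lived. The 10 genes described here were chosen by symbol from the table of normalized counts: Fos, Fosb, Jun, Junb and Jund, which encode subunits of AP-1, the zinc finger gene Egr1, Ier2, the orphan nuclear receptor gene Nr4a1, and the Krüppel-like factor genes Klf2 and Klf6. All 10 were found among the 48440 genes of the table, and all 10 were among the 16251 genes tested, which averaged 10 or more normalized counts over the libraries.

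AP-1 is a dimer of a FOS protein with a JUN protein, or of JUN proteins with each other, and binds short DNA elements in promoters and enhancers. Transcription of Fos and Egr1 is known to depend on serum response factor and its partners downstream of MAP kinases, and that of Fos and Nr4a1 also on CREB. In mouse bone marrow (BM), Egr1 and Nr4a1 are known for restraining the division of hematopoietic stem cells, and Junb for limiting myeloid expansion.

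RNA was measured in LSK cells, the Lin- Sca1+ cKit+ fraction of BM that contains stem cells and multipotent progenitors. Donor BM came from wild-type mice or from mice with a constitutive, endonuclease-made PROSER1 KO, and was given to lethally irradiated C57BL/6 recipients (9.5 Gy). No other treatment of these recipients is described in the methods. LSK cells were sorted 77 days later, and 4 wild-type and 3 PROSER1 KO libraries, labelled as biological replicates, were made from polyadenylated RNA. The number of mice behind a library, their sex and their age are not stated, no marker that separates donor from host cells is given for these chimeras, and host cells could thus be included. Depth, as read pairs assigned to genes, was 40845213, 42742329, 33143619 and 35160254 for the wild-type libraries in the order of their replicate numbers, and 37140168, 45140743 and 40794865 for those labelled PROSER1 KO. A value given as a normalized count is the number of read pairs on a gene divided by the size factor of its library.

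Proser1, the targeted gene, had normalized counts of 2019.4, 2153, 2103 and 2077 in the wild-type libraries and of 2464, 2359 and 2338 under the PROSER1 KO label. Its mRNA was not lower under the KO label, and the groups did not overlap, with all 3 labelled libraries above all 4 wild-type libraries. The log2 fold change was 0.19 (SE 0.049, adjusted p = 0.204 from limma). A gene-level count cannot show whether the mRNA is intact, so that the label rests on the submitters, and directions are given below for the libraries labelled PROSER1 KO.

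The cell label was checked against marker genes. Kit was between 25535 and 32357, Cd34 between 29694 and 36918, and Flt3 between 20598 and 28504 normalized counts over the 7 libraries, and none of the 10 LSK and stem cell markers was at 0. Markers of mature cell types were also present, foremost of plasma cells, with Ighm at 687394 normalized counts or more. In bulk RNA, a change in the number of cells of a type cannot be told apart from a change of RNA per cell.

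The main feature of the immediate early genes was a difference between libraries of the same group. Wild-type replicate 1 had the highest value of the 7 libraries for 10 of 10 members, whereas it was the highest for 12.8% of all genes tested. The members were chosen with earlier results of these data known, so that this contrast is a description and not a test. Together the members took 0.130% of its read pairs, against 0.0584, 0.0311 and 0.0376% in the other wild-type libraries and 0.0575, 0.0590 and 0.0398% in the libraries labelled PROSER1 KO. No member differed between the groups by the test used, and the direction of 5 of the 10 members depended on whether wild-type replicate 1 was counted.

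**Figure D1:**
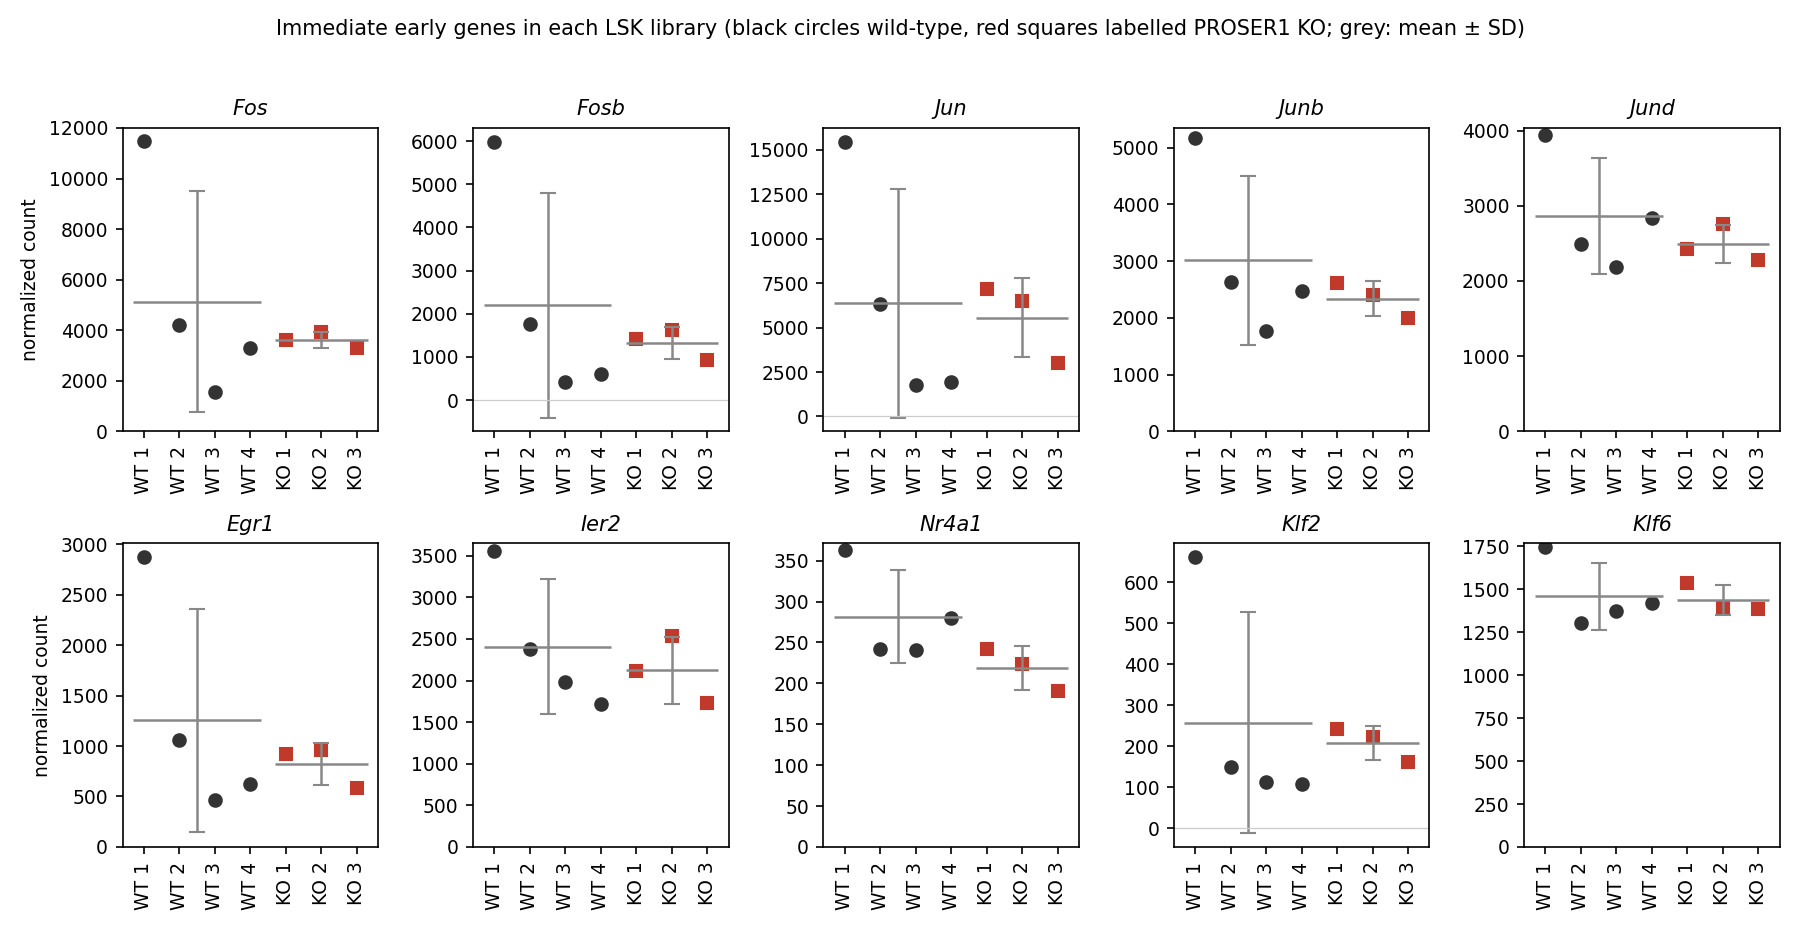
Normalized counts of the 10 members in each library, on linear axes that include 0. Black circles are wild-type libraries, red squares are libraries labelled PROSER1 KO, and grey lines are group means with the SD (n = 4 and n = 3). Wild-type replicate 1 is the highest point in all 10 panels.

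Promoter sequences of 8 of the 10 members were in the RefSeq table used (GRCm38.p6), all except Egr1 and Ier2. Those of Fos, Fosb, Jun and Klf2 are shown because these members ranged most widely among the 8, and that of Nr4a1 because it ranged little. Jund and Klf6 ranged less than Nr4a1, and their sequences are not shown. Each line ends at the start of the RefSeq transcript or, for Fosb and Klf2, at the base before the first annotated exon. The windows of Fos (chr12:85473640-85473889, forward strand), Fosb (chr7:19310052-19310295, reverse strand), Jun (chr4:95052223-95052472, reverse strand) and Klf2 (chr8:72318812-72319032, forward strand) lie upstream of the gene. That of Nr4a1 (chr15:101266596-101266845, forward strand) lies inside the annotated gene, between exons of longer transcripts. Capitals mark TGACG, the core of the cAMP response element, in Fos, Fosb, Klf2 and, as its reverse complement, Nr4a1; the TATA box TATAAA in Fos; the EGR motif GCGNGGGCG in Fosb, Klf2 and, as its reverse complement, Nr4a1; the KLF motif CCNCACCC in Jun, also reversed; and the MEF2 box in Jun and Klf2.
Fos: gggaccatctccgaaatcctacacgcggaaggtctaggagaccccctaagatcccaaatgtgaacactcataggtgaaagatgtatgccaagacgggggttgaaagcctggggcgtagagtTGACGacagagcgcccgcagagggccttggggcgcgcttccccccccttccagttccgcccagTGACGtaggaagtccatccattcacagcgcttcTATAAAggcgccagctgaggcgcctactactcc
Fosb: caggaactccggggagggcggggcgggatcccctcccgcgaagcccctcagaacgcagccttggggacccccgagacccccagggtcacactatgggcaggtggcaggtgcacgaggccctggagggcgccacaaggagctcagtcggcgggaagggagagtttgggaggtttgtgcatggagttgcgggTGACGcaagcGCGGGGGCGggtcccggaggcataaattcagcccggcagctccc
Jun: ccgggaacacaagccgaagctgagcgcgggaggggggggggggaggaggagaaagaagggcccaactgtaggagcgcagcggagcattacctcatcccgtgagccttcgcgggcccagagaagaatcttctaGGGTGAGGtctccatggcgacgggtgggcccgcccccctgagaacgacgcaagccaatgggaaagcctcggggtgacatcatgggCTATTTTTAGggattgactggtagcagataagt
Klf2: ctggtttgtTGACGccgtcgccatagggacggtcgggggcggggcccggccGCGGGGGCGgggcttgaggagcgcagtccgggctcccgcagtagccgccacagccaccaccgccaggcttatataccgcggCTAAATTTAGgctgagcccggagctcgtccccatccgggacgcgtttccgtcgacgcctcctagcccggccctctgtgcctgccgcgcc
Nr4a1: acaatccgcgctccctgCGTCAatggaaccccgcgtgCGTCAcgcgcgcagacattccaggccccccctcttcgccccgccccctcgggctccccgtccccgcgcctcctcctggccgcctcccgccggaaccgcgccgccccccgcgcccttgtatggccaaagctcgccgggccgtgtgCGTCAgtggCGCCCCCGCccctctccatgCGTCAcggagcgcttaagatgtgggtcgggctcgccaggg

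Motifs were searched on both strands of windows of 300 bases, from 250 before to 50 after the RefSeq start. TGACG occurred in 5 of the 8 members (Fos, Fosb, Junb, Nr4a1 and Klf2) and in 20.8% of 32851 promoters of that length. Fos held it at positions -129 and -66 from the start, and Nr4a1 held it 4 times. The EGR motif occurred in 3 of 8 (Fosb, Nr4a1 and Klf2) and in 5.55% of all promoters, and the MEF2 box in 2 of 8 (Jun and Klf2) and in 0.557%. The KLF motif was in Jun only of the 8 (16.6% of all), the TATA box in Fos at -33 and in Junb at 1 (13.6%), and the GC box GGGCGG in 6 of 8 (35.7%). For Junb, position 1 is the start of the RefSeq transcript. The annotated Junb gene, on the reverse strand, starts downstream of it at 84978718, so that this TATA box lies upstream of the annotated gene. The GC box, which is not capitalised, shares bases with the EGR motif of Fosb, Nr4a1 and Klf2. No window of the 8 held the whole cAMP response element TGACGTCA (1.79% of all), the AP-1 motif TGANTCA (7.81%) or the CArG box bound by serum response factor (1.63%). Sites farther than 250 bases before the start were not searched, and Egr1 had no window. The regulatory regions of Fos and Egr1 may thus hold such sites outside what was searched. The Jund window held none of these motifs and that of Klf6 only the GC box; the RefSeq start of Jund lies upstream of its annotated gene, so that its window is not next to the gene used for counting. TGACG and the MEF2 box were added after the sequences had been read. A match describes letters and not a bound site.

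Fos and Fosb encode the FOS subunits, which need a JUN partner to bind DNA. Fos (ENSMUSG00000021250, chr12:85473890-85477273) had 11476, 4188, 1557 and 3312 normalized counts over the wild-type libraries and 3627, 3916 and 3283 over those labelled PROSER1 KO. The labelled libraries lay close together, inside a wild-type range that was set by replicate 1 at the top and replicate 3 at the bottom. The wild-type mean was 5133 ± 4367 (SD, n = 4), the labelled mean 3609 ± 317 (SD, n = 3), and the log2 fold change was -0.14 (SE 0.52, 95% interval -1.31 to 1.02, adjusted p = 0.958 from limma).

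Fosb (ENSMUSG00000003545, chr7:19302696-19310051) ranged most widely of the 10 members, with 5991, 1753, 426 and 611 normalized counts over the wild-type libraries and 1423, 1631 and 926 over the labelled ones. Its highest library was 14.0 times its lowest, and the groups overlapped, with all 3 labelled libraries between wild-type replicates 2 and 4. Fosb averaged 2195 ± 2597 in wild-type (SD, n = 4) and 1327 ± 362 under the KO label (SD, n = 3), with a log2 fold change of 0.0046 (SE 0.76, 95% interval -1.70 to 1.71, adjusted p = 0.999 from limma). The mean of the wild-type group was the higher and the log2 fold change still close to 0, since the test compares means of log values, in which replicate 1 weighs less. By edgeR and by DESeq2 the log2 fold change of Fosb was -0.73, and by limma it was -0.53 to 0.74 with each library left out.

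Jun (ENSMUSG00000052684, chr4:95049034-95052222), the main transactivating partner of Fos, followed the same order in the wild-type libraries, with 15475, 6310.2, 1744 and 1935 normalized counts. Under the PROSER1 KO label it had 7146, 6500.5 and 3031. The first 2 of these lay just above wild-type replicate 2, the last lay between the wild-type libraries, and the groups overlapped. The log2 fold change was 0.29 (SE 0.69, 95% interval -1.27 to 1.85, adjusted p = 0.935 from limma). Its direction was not stable: it was -0.20 by edgeR and by DESeq2, and -0.14 to 0.91 with each library left out.

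Junb (ENSMUSG00000052837, chr8:84974484-84978718), which can oppose Jun on some targets, had 5172, 2633, 1769 and 2483 normalized counts over the wild-type libraries and 2613, 2397 and 2007 over the labelled ones. Only wild-type replicate 1 stood far from the rest, and the groups overlapped. Jund (ENSMUSG00000071076, chr8:70698949-70700616), the JUN gene with the steadiest expression in many cells, had 3945, 2486, 2183 and 2832 against 2431, 2763 and 2281. The same library was the highest by a smaller margin, 1.39 times the next, and the groups overlapped. Log2 fold changes were -0.26 for Junb (95% interval -0.91 to 0.40) and -0.17 for Jund (95% interval -0.55 to 0.22), with adjusted p of 0.826 and 0.798 from limma.

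A limit applies to the JUN genes. Jun and Jund overlap antisense genes (Junos and Gm11175) and Junb overlaps Prdx2 on the other strand, and the strand setting of the counting is not stated, so that reads in the overlaps are uncertain. Junos was between 13.8 and 42.4 and Gm11175 between 51.6 and 113 normalized counts, both highest in libraries other than wild-type replicate 1. Prdx2 was between 6753 and 7722.

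Egr1 (ENSMUSG00000038418) had 2871, 1059, 469 and 628 normalized counts over the wild-type libraries and 918, 962 and 579.9 over those labelled PROSER1 KO. Wild-type replicate 1 was 2.71 times the next library, and the labelled libraries lay inside the wild-type range. Egr1 averaged 1257 ± 1105 in wild-type (SD, n = 4) and 820.0 ± 209 under the KO label (SD, n = 3), with a log2 fold change of -0.28 (SE 0.52, 95% interval -1.45 to 0.89, adjusted p = 0.909 from limma).

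Nr4a1 (ENSMUSG00000023034, chr15:101254269-101274795) had 363, 242, 241 and 279 normalized counts in the wild-type libraries and 242, 224 and 190.1 in the labelled ones. It was the only member with libraries labelled PROSER1 KO below the whole wild-type range, replicates 2 and 3 of that group, and labelled replicate 1 lay between the wild-type replicates 2 and 3, so that the groups overlapped. Its log2 fold change of -0.35 (SE 0.17, 95% interval -0.73 to 0.030) was below 0 in all settings tried and had the lowest adjusted p of the 10, 0.540 from limma. Across those settings the lowest adjusted p of Nr4a1 was 0.484.

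Klf2 (ENSMUSG00000055148, chr8:72319033-72321656), known for quiescence and trafficking of lymphocytes, had 661, 149.6, 113 and 107 normalized counts over the wild-type libraries and 241, 222 and 160.3 over those labelled PROSER1 KO. Wild-type replicate 1 lay above all labelled libraries and the other wild-type libraries lay below all of them, so that the groups overlapped through 1 library. Klf2 averaged 257 ± 269 in wild-type (SD, n = 4) and 208 ± 42.1 under the KO label (SD, n = 3), and the log2 fold change was 0.14 (SE 0.56, 95% interval -1.11 to 1.39, adjusted p = 0.962 from limma). Without wild-type replicate 1 the log2 fold change of Klf2 was 0.75 (SE 0.22, 95% interval 0.25 to 1.24), and the groups no longer overlapped. The adjusted p was then 0.425 from limma, so that Klf2 was not called in either case. With all 7 libraries the log2 fold change of Klf2 was -0.31 by edgeR and by DESeq2.

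Klf6 (ENSMUSG00000000078, chr13:5861482-5870394) was the steadiest member, with 1742, 1301, 1374 and 1417 normalized counts in the wild-type libraries and 1536, 1389 and 1384 in the labelled ones. Wild-type replicate 1 was again the highest, at 1.13 times the next library. The interval of its log2 fold change was the narrowest of the 10, from -0.24 to 0.21 around -0.014, and leaves out a change of 1.5-fold in either direction. Ier2 (ENSMUSG00000053560, chr8:84661331-84662852), a nuclear protein gene induced by serum, had 3550.3, 2378, 1982 and 1723 against 2113, 2532 and 1728, groups that overlapped. Its log2 fold change was -0.14 (SE 0.22, 95% interval -0.64 to 0.36, adjusted p = 0.890 from limma).

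Of the 10 members, 0 were called different between the groups (limma, adjusted p under 0.05 and fold change above 1.5), against 42 of 16251 genes tested or 0.258% (0.123% higher and 0.135% lower under the KO label). A fold change above 1.5 was estimated by limma for 0 of 10 members and for 8.23% of genes tested, and for Fosb and Egr1, both lower under the KO label, by edgeR (8.16% of its genes) and DESeq2 (14.1%). At an unadjusted p under 0.05 there were also 0 members by limma, against 9.73% of genes tested. By edgeR 0 members were called, against 40 of 16291 genes, and by DESeq2 0 members, against 165 of 18903 genes. Nr4a1 had an unadjusted p under 0.05 by DESeq2. The share of all genes under that p is not given for DESeq2, so that this member cannot be set against it. The groups did not overlap for 0 of 10 members and for 10% of genes tested. The log2 fold change was above 0 for Fosb, Jun and Klf2 (3 of 10, against 50.6% of genes tested) and below 0 for the other 7 members by limma, and below 0 for all 10 by edgeR and DESeq2. Its median was -0.14 over the members and 0.0015 over all genes tested. A p that misses the threshold does not show that the groups are alike, and the intervals of Fos, Fosb, Jun, Egr1 and Klf2 are each wider than 2 on the log2 scale.

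**Figure D2:**
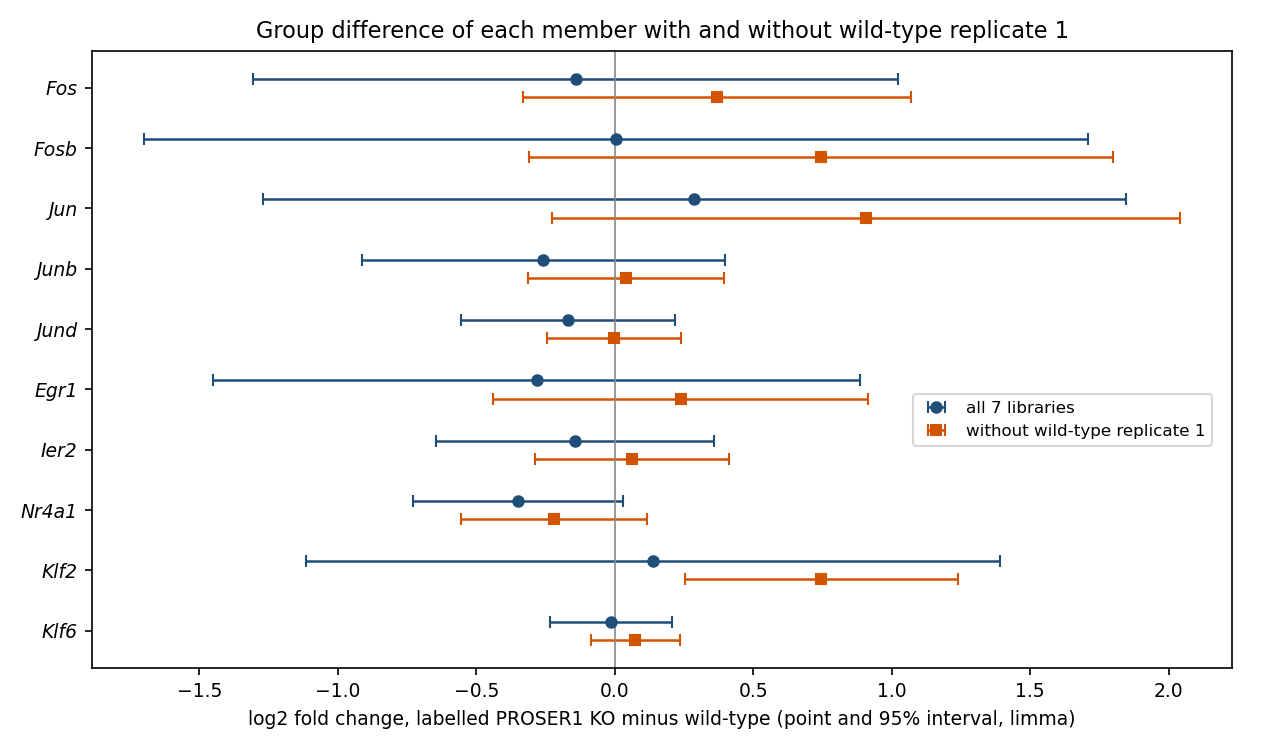
Log2 fold change of each member, libraries labelled PROSER1 KO minus wild-type, with its 95% interval from limma, for all 7 libraries (blue circles) and without wild-type replicate 1 (orange squares). With all 7 libraries the points lie between -0.35 (Nr4a1) and 0.29 (Jun). Every point moves to the right without wild-type replicate 1, which follows from that library being the highest for each member.

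The fold changes were therefore also given without wild-type replicate 1. Leaving out each library in turn was planned, and setting this one apart was a choice made after seeing the data. The log2 fold change then became 0.37 for Fos, 0.74 for Fosb, 0.91 for Jun, 0.040 for Junb, 0.24 for Egr1, 0.063 for Ier2 and 0.074 for Klf6, whereas Jund stood at -0.0016 and Nr4a1 at -0.22. In this fit 8 of 10 members were above 0 (50.2% of genes tested) and 5 had changed sign, and the median over the members was 0.16. Wild-type replicate 1 was the highest library for all 10 members, so that leaving it out raised each log2 fold change by construction. Among all genes tested it was the highest for 12.8%, so that their share above 0 is not a like comparison. The direction did not depend on that library alone: without wild-type replicate 3 or replicate 4, 0 of 10 members were above 0 (medians of -0.35 and -0.26), and Fosb, Jun and Klf2 changed sign. Without replicate 1 a fold change above 1.5 was estimated for Fosb, Jun and Klf2 (3 of 10, against 8.72% of genes tested), all higher under the KO label. Again 0 members were called, against 28 of 16234 genes or 0.172%. Klf2 was the 1 member with an unadjusted p under 0.05 (7.71% of genes tested) and the 1 member whose groups did not overlap (13.4% of genes tested), and 1 of 10 is close to these shares. Without this library the groups were compared over 3 and 3.

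The members varied together but not to the same extent. On the scale of log2(normalized count + 1), centred on the mean of the 7 libraries, the median of the 10 members was 1.30 in wild-type replicate 1, 0.065 in replicate 2, -0.66 in replicate 3 and -0.28 in replicate 4. It was 0.029, 0.081 and -0.36 in the libraries labelled PROSER1 KO. The labelled replicate 3 was the lowest of its group for 10 of 10 members (31.5% of genes tested), and wild-type replicate 2 lay above replicates 3 and 4 for 7 of 10 (29.1%). All labelled libraries lay between the lowest and the highest wild-type library for 9 of 10 members, all except Nr4a1, and for 22.1% of genes tested. The upper bound was met for all 10 because wild-type replicate 1 was their highest library, so that this count partly repeats that feature.

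**Figure D3:**
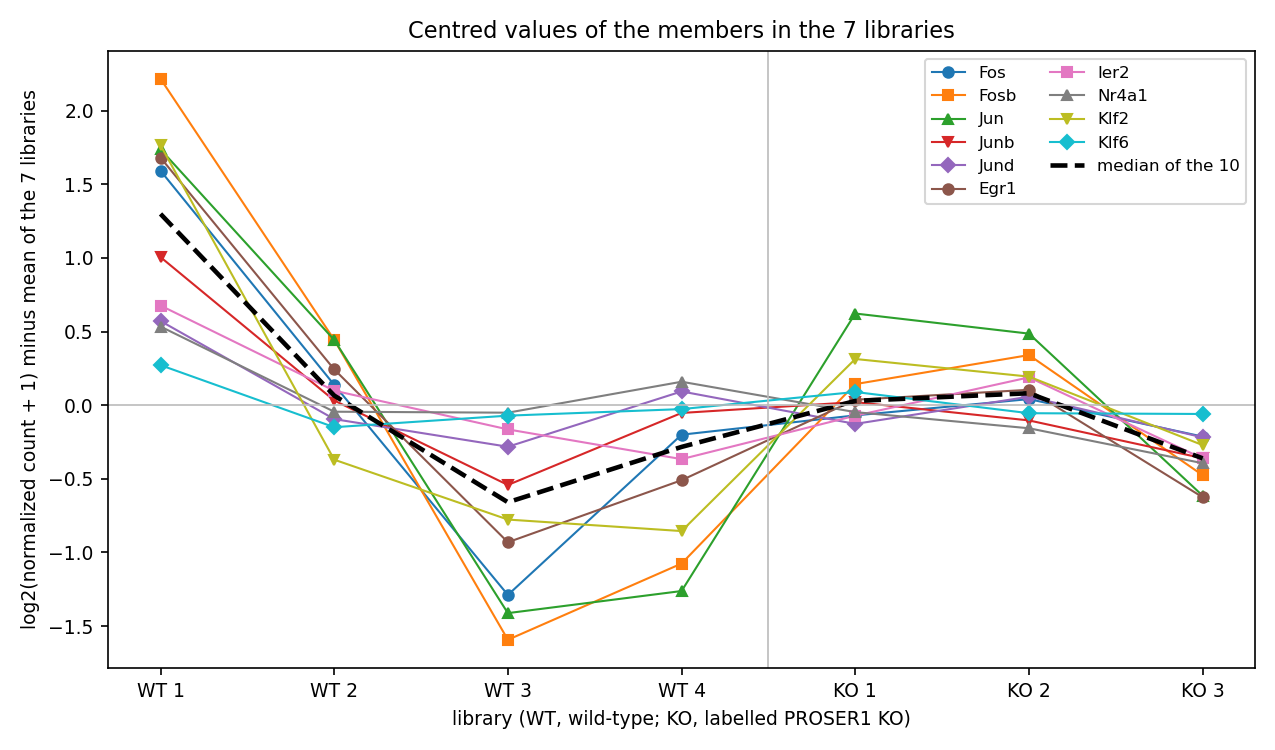
Log2(normalized count + 1) of each member minus its mean over the 7 libraries, by library; lines join the points of 1 gene and the dashed line is the median of the 10 members. All 10 members peak in wild-type replicate 1, where the median is 1.30, and Fosb has the widest and Klf6 the narrowest range.

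Fosb, Jun, Fos, Klf2 and Egr1 formed the wide-ranging members, with ratios of the highest to the lowest library of 14.0, 8.88, 7.37, 6.19 and 6.12. The ratios were 2.92 for Junb, 2.06 for Ier2, 1.91 for Nr4a1, 1.81 for Jund and 1.34 for Klf6. Within the 3 libraries labelled PROSER1 KO the same ratio was at most 2.36, for Jun, and it was 1.19 for Fos. Wild-type replicate 1 stood at 5.31 times the mean of the other 6 libraries for Fosb and at 1.24 times for Klf6.

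The residual SD around the group means, in log2 units, measures this spread within groups. Its median was 0.72 over the members and 0.13 over all genes tested. Fosb (1.35) lay at percentile 98.8 of all genes tested and Klf6 (0.15) at 54.7. Since spread falls with the level of a gene, each member was also placed among genes of like mean level, where 9 of the 10 lay at percentile 87.6 or higher and Nr4a1 at 67.2. Without wild-type replicate 1 the median over the members was 0.27, against 0.13 over all genes. Jun (0.87), Fosb (0.81), Fos (0.53) and Egr1 (0.51) then remained at percentile 98.0 or higher among genes of like level and Junb was at 96.8, Ier2 at 96.6 and Jund at 93.1, while Klf6 was at 30.8, Nr4a1 at 28.4 and Klf2 at 75.2. The spread of these 7 members was thus not confined to that library.

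**Figure D4:**
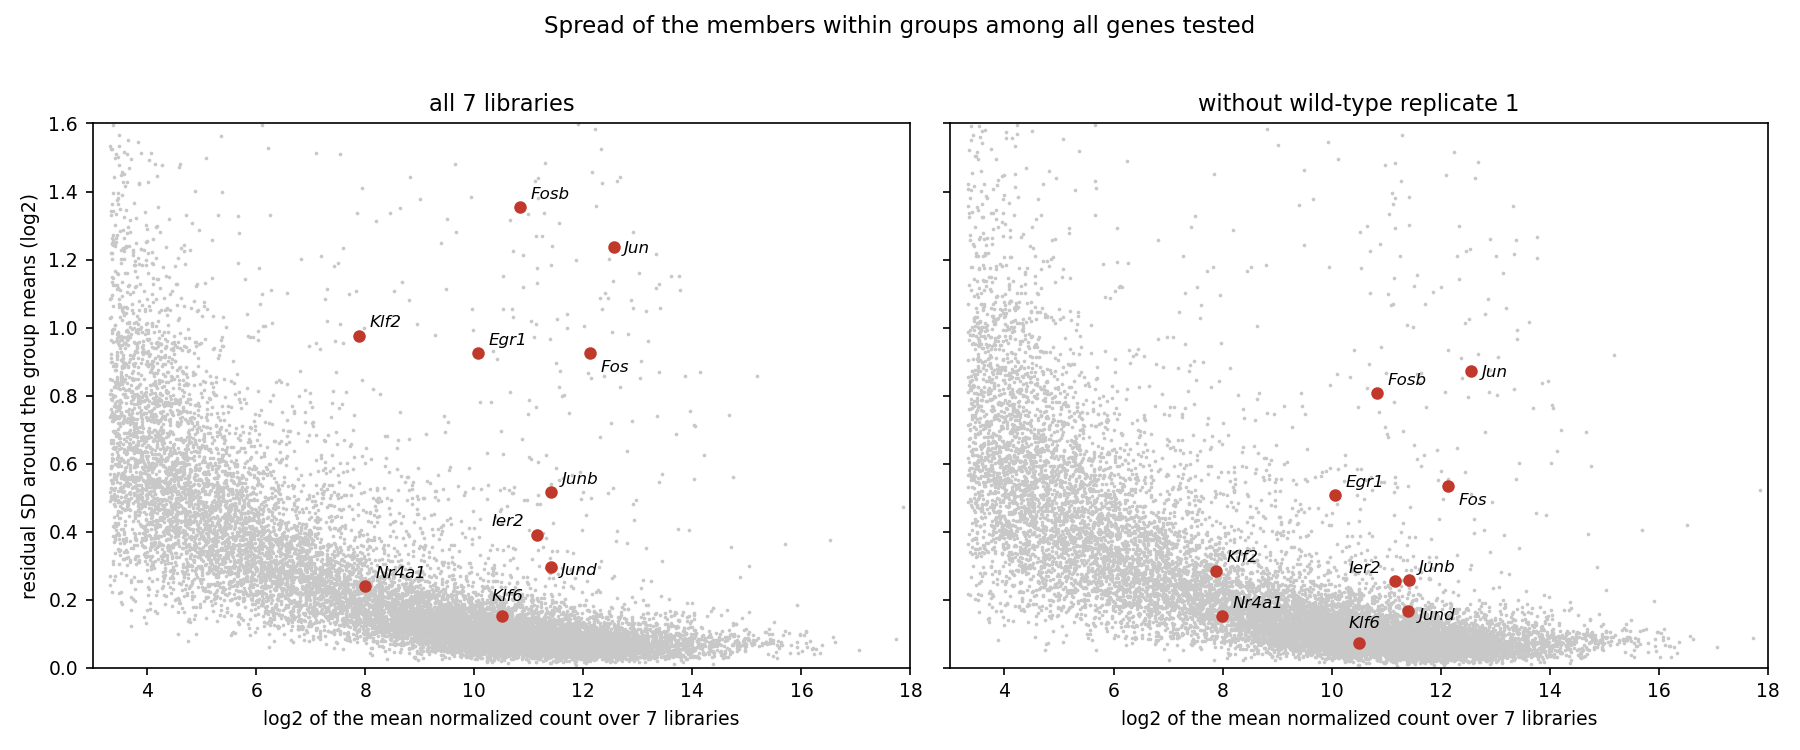
Residual SD around the group means, in log2 units, against the log2 of the mean normalized count, for genes tested (grey) and the 10 members (red), with all 7 libraries (left) and without wild-type replicate 1 (right). The vertical axis ends at 1.6 and a few genes above it are not drawn; the members range from 0.15 (Klf6) to 1.35 (Fosb) on the left.

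Levels of different genes were compared as normalized counts per kb of exon. Over the 7 libraries the mean level was 1905 for Fos (lowest 662, median 1542, highest 4879), 1888 for Jun, 1621 for Jund, 1502 for Ier2 and 1184 for Junb. These 5 form the upper group, in which the ranges of neighbours overlap over the libraries, although Ier2 lay above Junb within each of the 7 libraries. A gap follows, and Klf6 at 330.0 had its highest library below the lowest library of Junb. Fosb at 292, Egr1 at 239, Klf2 at 128 and Nr4a1 at 72.6 came next, again with overlapping ranges, although Egr1 lay above Klf2 within each library. The median level of all genes tested was 209 per kb, so that Fos, Jun, Jund, Ier2 and Junb lay at percentiles 89.7 to 94.0 and Nr4a1 at 31.5. Without wild-type replicate 1, Jund came first with 1496 per kb and Fos second with 1409, and Fosb fell to 181, Egr1 to 172 and Klf2 to 89.5. By the longest transcript in place of all exons, Junb (1506) passed Ier2 and Fosb (482) passed Klf6.

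The markers of other cells were set beside the members. The 8 neutrophil markers, of which Ngp was the most abundant, summed to 5393, 2052, 889.6 and 1058 normalized counts over the wild-type libraries and to 1047, 1645 and 3803 over those labelled PROSER1 KO. In the wild-type group this sum had the same order of libraries as the share of read pairs on the members. In the labelled group it did not, since labelled replicate 3 had the highest neutrophil sum of its group and was the lowest of its group for all 10 members. Wild-type replicate 1 was the highest library for 5 of the 8 neutrophil markers; of these markers Retnlg was at 0 in 2 libraries, and none was at 0 in all.

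The 8 T and innate lymphoid markers, led by Nkg7, summed to 7289 in wild-type replicate 1, 5226 to 5871 in the other wild-type libraries, and 7414, 4935 and 5683 in the labelled libraries; wild-type replicate 1 was the highest library for 2 of these 8. Plasma cell markers summed to 2449910 in wild-type replicate 1 and were higher in replicate 4 (3229210), where the median centred value of the members was -0.28, with Jund and Nr4a1 above their means. Mitochondrial genes took 1.23% of read pairs in wild-type replicate 1 and between 1.21 and 1.42% elsewhere, and its depth lay inside the range of the other libraries. For the other marker lists wild-type replicate 1 was the highest library for 0 of 10 LSK and stem cell, 0 of 8 B-lineage, 0 of 8 macrophage, 0 of 5 erythroid, 0 of 6 endothelial and stromal, 1 of 6 granulocyte and monocyte progenitor and 1 of 6 mast cell and basophil markers tested. The part of neutrophil or lymphoid cells in the values of the members was not tested.

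**Figure D5:**
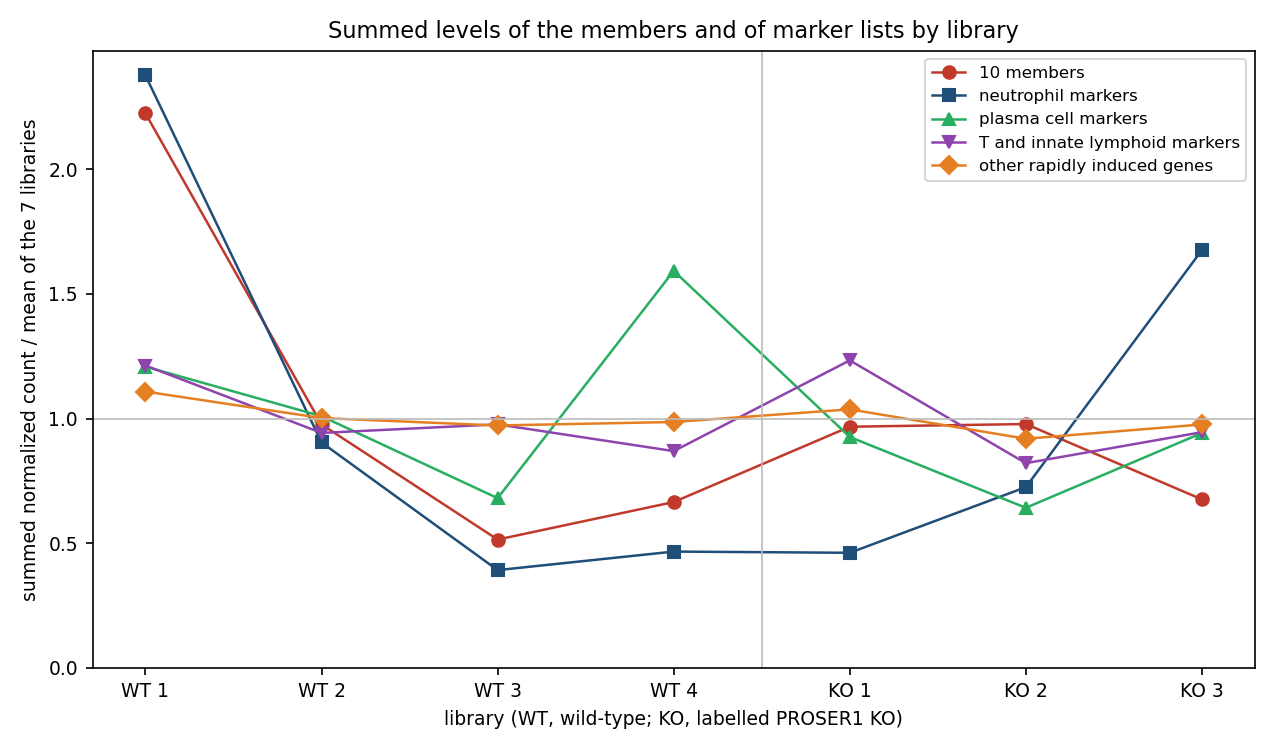
Summed normalized counts of the 10 members, of 3 marker lists and of the other rapidly induced genes in each library, divided by the mean of the 7 libraries; lines join the points of 1 list. The members and the neutrophil markers are both highest in wild-type replicate 1, and in labelled replicate 3 the neutrophil markers are high and the members low.

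Related genes were taken from 8 fixed lists with 114 genes, of which 105 were tested. By limma 0 of the 105 were called, against 0.258% of all genes tested. At an unadjusted p under 0.05 there were 8 of the 105 by limma, against 9.73% of all genes tested. By edgeR and DESeq2 also 0 were called, against 40 of 16291 and 165 of 18903 genes. The groups did not overlap for 10 of the 105, or 9.52%, near the 10% of all genes tested. Wild-type replicate 1 was the highest library for 20 of the 105 (19.0%, against 12.8% of all genes tested), and 11 of these 20 were among the 28 tested genes of the list of other rapidly induced genes. The lists, too, were chosen with earlier results of these data known, and these shares were not tested.

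In the other lists, whose shares were not tested against each other, wild-type replicate 1 was the highest library for 1 of 13 further AP-1 subunits and partners, 1 of 12 further KLF genes (Klf4), 3 of 27 upstream kinases and promoter factors, 1 of 10 MAPK phosphatases and Sprouty inhibitors and 0 of 9 heat shock genes. It was the highest for 2 of 4 genes of the EGR and NAB list, Egr2 and Egr3, and for Nr4a3 of the 2 further NR4A genes. Egr2, a zinc finger paralog of Egr1, had 109.6, 48.7, 36.8 and 31.3 normalized counts in the wild-type libraries and 31.3, 34.7 and 25.9 in the labelled ones, and wild-type replicates 1 and 2 were its highest libraries, as for Egr1. Egr3 (6.77 to 56.7) and Nr4a3 (0 to 24.0) were too low to describe beyond their range.

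Among the further AP-1 genes, Batf3, a partner of JUN proteins in lymphoid and dendritic cells, had the largest log2 fold change. Its normalized counts were 40.4, 51.4, 49.4 and 39.4 in the wild-type libraries and 22.9, 14.4 and 23.0 in the libraries labelled PROSER1 KO. All labelled libraries lay below all wild-type libraries, and the log2 fold change was -1.15 (SE 0.29, adjusted p = 0.204 from limma; 0.133 to 0.403 over the alternatives), so that it was not called. Maff, a small MAF protein gene, had a log2 fold change of -0.39 (adjusted p = 0.535 from limma), and Mafg, the most abundant of the list, was between 3353 and 3945 normalized counts.

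In the KLF list, Klf11 had 672, 1221, 1063 and 999 normalized counts in the wild-type libraries and 1488, 1323 and 1373 in the labelled ones, with no overlap. Wild-type replicate 1 was here the lowest library, the opposite of Klf2 and Klf6. Its log2 fold change was 0.53 (SE 0.17, adjusted p = 0.349 from limma). DESeq2 gave an adjusted p of 0.0350 at a fold change under 1.5, and the range over all alternatives was 0.0350 to 0.565. Klf10 of the same list also had an adjusted p under 0.05 by DESeq2 (0.0440, log2 fold change 0.32, also under 1.5-fold). By limma its log2 fold change was 0.33 (adjusted p = 0.327 from limma). Klf1, the erythroid KLF, had 0.49 (adjusted p = 0.749 from limma), and Klf13, the most abundant, was between 3345 and 4211 normalized counts.

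In the other lists the largest log2 fold changes were those of Id1 (0.95; 0.41 to 1.24 with each library left out) and Trib1 (-0.37; -0.62 to -0.20) among rapidly induced genes, Rps6ka5 (0.18) and Elk3 (0.11) among upstream factors, Spry4 (0.18) and Dusp10 (0.17) among feedback inhibitors, and Hspa1b (-0.30) and Dnajb1 (0.17) among heat shock genes. None was called, and Hspa1b was above 0 by edgeR (0.39) and DESeq2 (0.38). Nab1, a corepressor of EGR proteins, was between 2598 and 2979 normalized counts and Nr4a2 between 182 and 259. Of the most abundant genes, Zfp36l2 lay between 39007 and 47412, Mapk14 between 9952 and 10821, Spred1 between 3324 and 3990 and Hsp90ab1 between 93140.3 and 106299, and the highest library of these 4 genes was wild-type replicate 2 or 3.

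Likeness to the members was measured as the root mean square difference, over the 7 libraries, from their median centred profile, among 11954 other genes with a mean of at least 100. The closest were Klf4 (0.24), Zfp36 (0.24), Ppp1r15a (0.27), H1f2 (0.27), Snora31 (0.29), Rhob (0.29), Dusp1 (0.29) and Cd6 (0.30), against a median of 0.59 over these genes. Among the members themselves Junb was the closest to the profile (0.16), and Fosb (0.61) and Jun (0.59) differed most from it through their wider range. Klf4, Zfp36, Ppp1r15a, Rhob and Dusp1 were in the fixed lists, whereas H1f2 encodes a linker histone, Snora31 is a small nucleolar RNA and Cd6 a T cell surface receptor.

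Zfp36, whose protein promotes decay of AU-rich mRNAs, had 6766, 3042, 2331 and 2707 normalized counts in the wild-type libraries and 4158, 2741 and 3005 in the labelled ones. Dusp1, a phosphatase of MAP kinases, had 2634, 1127, 677 and 619 against 1193, 1638 and 964. For both genes, and for Klf4, Ppp1r15a and Rhob, the labelled libraries lay inside the wild-type range, whereas H1f2, Snora31 and Cd6 had labelled replicate 3 below it. The log2 fold changes were -0.056 for Zfp36 and 0.23 for Dusp1, with adjusted p of 0.975 and 0.915 from limma.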

How the data were processed

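LSK RNA of both genotypes, 4 wild-type and 3 labelled PROSER1 KO, was sequenced in pairs from directional libraries. Per the methods and the submitters' processing notes, the authors used Trimmomatic, STAR on mm10 (GRCm38.p6), featureCounts for read pairs per gene and the size factors of DESeq2. The deposited values are this normalized signal per gene. The methods and the header of the gene ID column name different GENCODE releases, and tool versions and the strand setting are not given in the sources used here. Each value was a whole multiple of 1 step per library, which gave back whole read pairs for 100% of values within 0.01; 0 columns were left unused.

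Group differences were fitted by limma 3.58.1 in R 4.3.3 (eBayes with trend) to log2(normalized count + 1), for genes averaging 10 or more; this scale understates changes of low genes. Calls needed a Benjamini-Hochberg adjusted p under 0.05 over all genes tested and a fold change above 1.5. edgeR 4.0.16 and DESeq2 1.42.0 ran on the recovered read pairs as alternatives and called 40 and 165 genes. Further alternatives changed the pseudocount (0.1, 10), the filter (none, 50), the variance model (no trend, robust), the normalization (quantile, TMM), the fold change minimum, the replicate block, the libraries (each omitted) and the transcript length used for levels. The procedures were tested on simulated data, and no values from that test are given or used here. A count of 0 allows up to 3 read pairs, or 2.54 to 3.48 normalized counts, for counting error only. Libraries of a group all differed by more than counting error alone (chi-square over its degrees of freedom of 27.8 to 88.0). Separate biological samples exceed counting error at this depth, so that no conclusion was drawn from it. Positions and exon lengths are from GENCODE M21 (GRCm38), and 99.7% of tested genes had a length.

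The members and lists were chosen with earlier results of these data known. Named genes were the members, Proser1, the called genes of 8 pathway lists or else the 2 with the largest absolute log2 fold change and the most abundant of each, and the 8 genes most like the members. Klf10 was added for its adjusted p by DESeq2. Marker lists were summed per library. Figures were drawn with matplotlib 3.10.9 in Python 3.11.15.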

Additional observations from a re-analysis of the deposited data

Results flagged for a closer look

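Among 53 values tested in the 4 wild-type libraries, 3 had a library far from the others, with a gap to its neighbour of more than 0.829 of the range. Chance gives about 1 in 20 for values chosen without regard to their pattern. The 53 include the 8 genes chosen for their likeness to the members, so that 3 of 53 cannot be set against that rate. The values are not independent, since all 10 members were highest in wild-type replicate 1. Klf2 stood at 661 normalized counts in wild-type replicate 1, with a gap of 0.922 of the range. Zfp36 stood at 6766 in the same library, with a gap of 0.840 of the range; it was among the genes chosen for their likeness to the members, which peak in that library, so that the chance rate does not apply to it. The summed macrophage markers, led by Cd68, stood at 1712 in wild-type replicate 4, with a gap of 0.846 of the range, a library in which the median centred value of the members was -0.28. The cause was not tested.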

How the results depend on the processing

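No setting called any member. The number of genes called over the whole table, 42, was 17 without trend, 80 with robust variance and 165 with DESeq2 (80 higher and 85 lower), and 23 to 42 with each library left out, the lowest without the library labelled PROSER1 KO 2. Fosb had a log2 fold change of -0.000213 with a pseudocount of 10, -0.73 with edgeR and with DESeq2, and -0.53 to 0.74 with each library left out. Jun had -0.20 with edgeR and with DESeq2 and -0.14 to 0.91 with each library left out. Klf2 had -0.31 with edgeR and with DESeq2 and -0.13 to 0.75 with each library left out. edgeR and DESeq2 compare means of counts, in which wild-type replicate 1 weighs more than in means of logs. By both tools Fos had -0.51 and Egr1 -0.62. The ranges with each library left out were -0.59 to 0.37 for Fos, -0.48 to 0.040 for Junb, -0.63 to 0.24 for Egr1, -0.29 to 0.063 for Ier2 and -0.066 to 0.074 for Klf6; Jund (-0.29 to -0.0016) and Nr4a1 (-0.42 to -0.22) stayed below 0. Of the other genes named, signs also turned with a library left out for Dusp1 (-0.031 to 0.66), Zfp36 (-0.23 to 0.28), Spry4 (-0.056 to 0.33) and Hspa1b (-1.14 to 0.88), among others, and the size moved without a turn for Klf1 (0.10 to 0.75), Elk3 (0.043 to 0.16) and Dusp10 (0.068 to 0.26). The median residual SD of the members was 0.27 to 0.80, the lowest without wild-type replicate 1. By the longest transcript, which is shorter than all exons together for 5 members, Fosb had 482 normalized counts per kb and ranked above Klf6 (343), Junb had 1506 and ranked above Ier2 (1502), Fos had 2125 and Nr4a1 99.7.

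Replicate numbers did not pair the libraries: correlations of same-numbered libraries were -0.106 to 0.0575, and not every library correlated best with its own number. With the replicate number as a block, in which wild-type replicate 4 drops out of the contrast, 35 genes and 0 members were called, and the log2 fold change was -0.35 for Fosb, -0.092 for Jun and -0.13 for Klf2.

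The lowest value of a member was 107 normalized counts. The part of depth in the intervals was not tested.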
